A study of Mus musculus with 4 samples.

Results

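SMAD4 is the shared partner of the SMAD proteins that carry TGFβ signals into the nucleus. The regions described here are the SMAD4-bound regions of mouse alveolar macrophages (AMs) that lie closest to the start of a gene that makes no protein. AMs are the resident macrophages of the lung airspaces. Overlapping peaks (1 bp or more) were joined, and an interval with a peak of both SMAD4 libraries was called a shared region. A shared region was kept when the transcription start site (TSS) nearest to its midpoint belonged to a noncoding gene, that is, a gene with curated noncoding RefSeq transcripts and no curated protein-coding one. This gave 1916 noncoding-nearest regions of 10964 shared regions (17.5%, exact 95% interval 16.8 to 18.2), and of 23729 regions in the union of both lists. All of them are counted below, and no filter on low values was applied.

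The AMs came from the bronchoalveolar lavage of 9-wk-old wild-type C57BL/6J mice, with no treatment named, and were sorted by flow cytometry. SMAD4 was immunoprecipitated by HT-ChIPmentation, in which the transposase Tn5 adds sequencing adapters to chromatin that is still on the beads. The series holds 4 samples, 2 SMAD4 libraries (replicates 1 and 2) and 2 input libraries made without the antibody, and the labels do not say whether cells were pooled from several mice. The inputs served as control in peak calling and have no values of their own here. All samples were of 1 condition. The comparisons are therefore between noncoding-nearest regions, coding-nearest regions and the genome, and no test across samples was possible.

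Noncoding genes make RNAs that act without translation. Long noncoding RNAs (lncRNAs) can regulate genes nearby or serve as scaffolds in the nucleus, microRNAs (miRNAs) are cut from hairpin precursors and repress mRNAs that match bases 2 to 8 of the mature RNA (the seed), and small nuclear and nucleolar RNAs serve splicing and RNA modification. Several miRNAs and lncRNAs are known for tuning macrophage activation and survival. "Nearest" is a statement of distance alone. For a miRNA gene the annotated start is that of the hairpin, which can lie far from the promoter of the primary transcript.

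The peaks rested on few fragments. The library medians were 17 fragments stacked at the summit in replicate 1 and 14 in replicate 2, with lowest values of 9 and 7. Fold enrichment is the ratio of summit fragments over the control level, each with 1 added, as the authors' peak caller gave it. As a check of the cell type, 12 of 13 annotated AM marker genes had a shared region closest to their TSS (43 regions), among them Siglecf, Itgax, Marco and Pparg, as were 3 of 11 marker genes of other lavage cells (S100a8, Scgb1a1 and Pecam1, 7 regions). Among all coding genes the share was 21.5%. The marker lists were chosen with earlier results of these data known. Peaks do not measure expression, so this shows binding near those genes and not the makeup of the sample.

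Summit sequences of regions to which the results below return are shown here, read from the plus strand of mm10 (GRCm38), 60 bp to each side of the mean of both summits. They are the strongest region and regions at a miRNA gene and at lncRNA genes of a fixed immune list. Gm51814 is a further strong region, and 2 strong regions had no searched string in the printed stretch (2810029C07Rik and Gm19510). Capitals mark matches to the C/EBP string TTGCNNAA or the AP-1 string TGANTCA on either strand.
1700112H15Rik, chr1:184536506-184536626: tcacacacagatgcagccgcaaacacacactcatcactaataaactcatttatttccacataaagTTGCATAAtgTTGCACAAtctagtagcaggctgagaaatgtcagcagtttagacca
Mir21a, chr11:86603874-86603994: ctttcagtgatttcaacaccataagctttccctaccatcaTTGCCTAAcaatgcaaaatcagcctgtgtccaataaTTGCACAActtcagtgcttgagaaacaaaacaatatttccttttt
Morrbid, chr2:128467670-128467790: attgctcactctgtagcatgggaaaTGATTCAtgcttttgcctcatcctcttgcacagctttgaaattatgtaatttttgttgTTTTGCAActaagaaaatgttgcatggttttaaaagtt
Gm51814, chr10:19053586-19053706: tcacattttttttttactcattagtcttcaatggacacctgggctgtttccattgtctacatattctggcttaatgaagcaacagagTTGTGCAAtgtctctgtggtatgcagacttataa
Mir99ahg, chr16:77174846-77174966: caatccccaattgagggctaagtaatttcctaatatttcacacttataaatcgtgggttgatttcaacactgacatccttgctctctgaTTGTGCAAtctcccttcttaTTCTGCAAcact
Ptgs2os2, chr1:150164968-150165088: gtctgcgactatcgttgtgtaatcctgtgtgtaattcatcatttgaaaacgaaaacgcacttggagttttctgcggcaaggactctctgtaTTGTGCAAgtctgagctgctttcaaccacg
2810029C07Rik, chr12:111560950-111561070: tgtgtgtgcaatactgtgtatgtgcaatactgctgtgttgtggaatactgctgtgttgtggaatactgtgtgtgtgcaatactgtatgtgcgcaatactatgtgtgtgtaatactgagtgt
Gm19510, chr15:59831151-59831271: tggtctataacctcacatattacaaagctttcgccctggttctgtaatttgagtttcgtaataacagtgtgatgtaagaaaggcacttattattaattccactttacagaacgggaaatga

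The SMAD palindrome GTCTAGAC, in capitals below, was found in few summit windows. From the 4 strongest such regions, 3 are printed over 61 bp. LOC105245613 and E130008D07Rik fall outside the naming rule and were chosen after their values were seen.
Gm33370, chr5:96950046-96950106: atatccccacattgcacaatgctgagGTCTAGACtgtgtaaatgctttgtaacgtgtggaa
LOC105245613, chr13:101524293-101524353: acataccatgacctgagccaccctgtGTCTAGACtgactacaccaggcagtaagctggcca
E130008D07Rik, chr17:43214199-43214259: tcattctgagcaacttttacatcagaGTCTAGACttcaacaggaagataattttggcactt

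Mature miRNAs of genes that come up below are given from RefSeq (GRCm38) with the seed in capitals, to show which of them share a seed. Of 169 miRNA genes nearest to a region, 139 had an entry there, with 220 mature RNAs and 218 different seeds. Only 2 seeds recurred between genes, AGCUUAU in Mir21a and Mir21c and ACAUUCA in Mir181a-1 and Mir181b-2.
miR-21a-5p: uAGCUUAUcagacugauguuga
miR-21c: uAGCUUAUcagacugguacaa
miR-181a-5p: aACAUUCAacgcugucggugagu
miR-181b-5p: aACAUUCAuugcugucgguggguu
miR-146a-5p: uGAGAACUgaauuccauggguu
miR-511-3p: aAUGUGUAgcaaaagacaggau
miR-29b-3p: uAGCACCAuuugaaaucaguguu

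To determine how often SMAD4 regions lay closest to a noncoding start, the regions were set beside the known bases of the genome, each assigned to its nearest curated TSS. Of those bases, 24.8% were closest to a noncoding TSS, against the 17.5% of shared regions, a ratio of 0.706. This ratio was not matched for distance, and the genome share was itself higher far from a TSS. Within the distance bands below, the ratio ran from 0.713 under 1 kb to 0.942 beyond 100 kb. The share was lower than that of the genome at every distance. Under 1 kb from the nearest TSS, 113 of 930 shared regions were noncoding-nearest (12.2%, 10.1 to 14.4) against 17.0% of bases, and from 1 to 10 kb, 425 of 2975 (14.3%, 13.0 to 15.6) against 16.9%. From 10 to 100 kb the values were 1073 of 6050 (17.7%, 16.8 to 18.7) and 22.1%. Beyond 100 kb they were 305 of 1009 (30.2%, 27.4 to 33.2) and 32.1%, the only band whose interval held the genome share. Intervals are exact binomial ones and cover counting error alone, since regions of a library are not independent replicates.

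**Figure D1:**
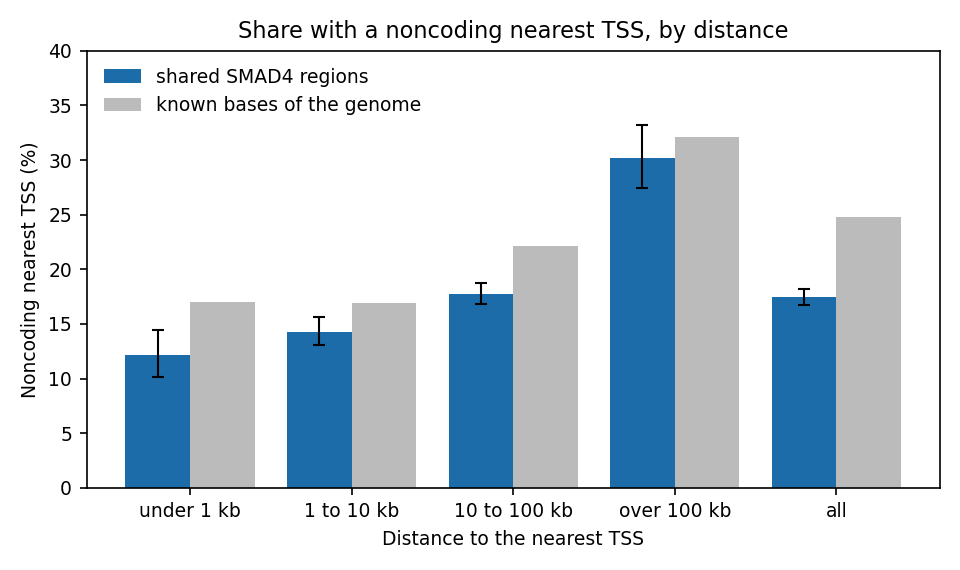
Percent of shared SMAD4 regions (blue, n = 10964 in all) and of known genome bases (grey) whose nearest curated TSS is noncoding, by distance to that TSS. Error bars are exact 95% binomial intervals. The blue bars rise from 12.2% under 1 kb to 30.2% beyond 100 kb, and the grey bars stand above them in each band.

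On all 20 chromosomes the share of regions was below that of the chromosome's own bases. The gap was widest on chromosome 9, where 55 of 562 shared regions were noncoding-nearest (9.79%) against 23.8% of bases. It was narrowest on chromosome 7, with 102 of 617 (16.5%) against 17.9%. No interval was computed per chromosome and distance was not matched, so narrow gaps such as this one may lie within counting error. Chromosome 10 had the highest share, 153 of 656 (23.3%), and 28.9% of its bases.

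**Figure D2:**
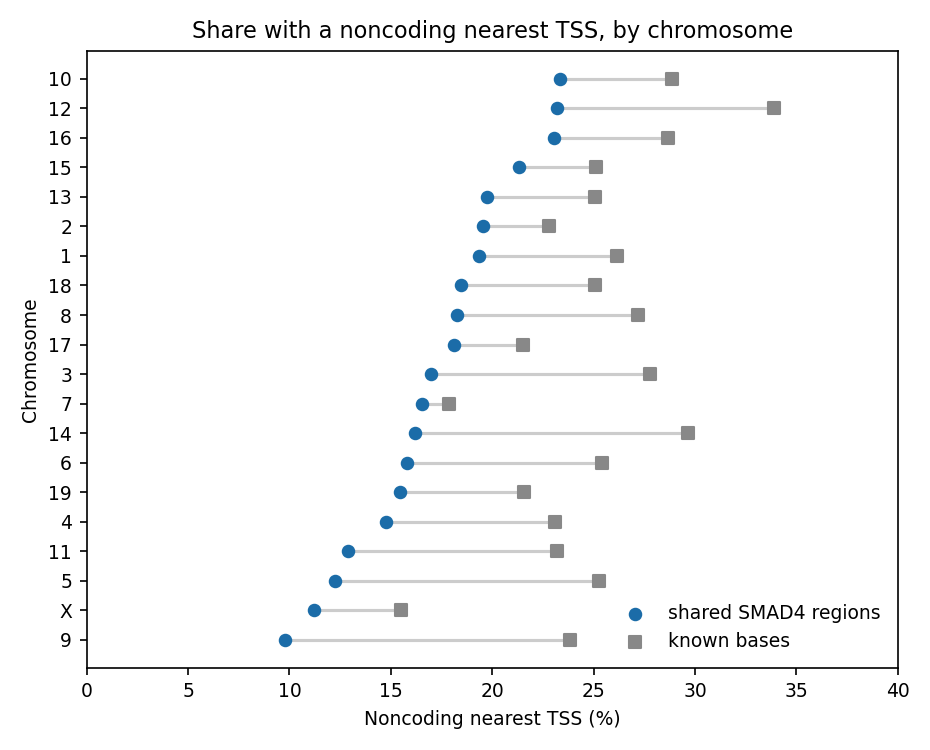
Percent of shared SMAD4 regions (circles) and of known bases (squares) with a noncoding nearest TSS on each chromosome, ordered by the share of regions. The circle lies left of the square on each of the 20 chromosomes, with values for regions from 9.79% (chromosome 9) to 23.3% (chromosome 10).

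The share was somewhat higher in replicate 1 than in replicate 2, with intervals that did not overlap. Replicate 1 had 3241 noncoding-nearest peaks of 16369 (19.8%, 19.2 to 20.4) and replicate 2 had 3435 of 19015 (18.1%, 17.5 to 18.6), a mean of 18.9% ± 1.23 (SD, n = 2), below the genome share in both. Regions seen in replicate 1 alone had a noncoding nearest TSS in 1255 of 5007 cases (25.1%, 23.9 to 26.3). That interval holds the genome share of 24.8%, so these regions showed no deficit. Those seen in replicate 2 alone had one in 1460 of 7758 (18.8%, 18.0 to 19.7). Of 4631 noncoding-nearest regions in the union, 1916 were found in both libraries (41.4%, 39.9 to 42.8). The background over all union regions was 46.2%, and coding-nearest regions reached 47.4% (46.7 to 48.1).

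In strength, noncoding-nearest regions were like the rest. Their median fold enrichment was 6.82 in replicate 1, with the middle of the regions between 5.20 and 9.86 (interquartile range), and 9.48 in replicate 2 (6.77 to 14.6). The medians of coding-nearest regions had the same values. Folds ran from 2.37 to 52.3 in replicate 1 and from 3.07 to 79.9 in replicate 2. At least 20-fold in both libraries were 76 regions (3.97%, 3.14 to 4.94), beside a background of 3.84% of all shared regions, and at least 10-fold were 459 (23.96%), beside 23.3%. Their median width was 437.5 bp, against 440 bp. Summits of both libraries lay a median of 50 bp apart. The fold was higher in replicate 2 for 1660 regions (86.6%), as it was for 87.4% of coding-nearest regions. Across the 1916 regions the folds of the libraries ranked alike, with a Spearman rho of 0.797. This describes regions that share their libraries and depth, and no p was computed.

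**Figure D3:**
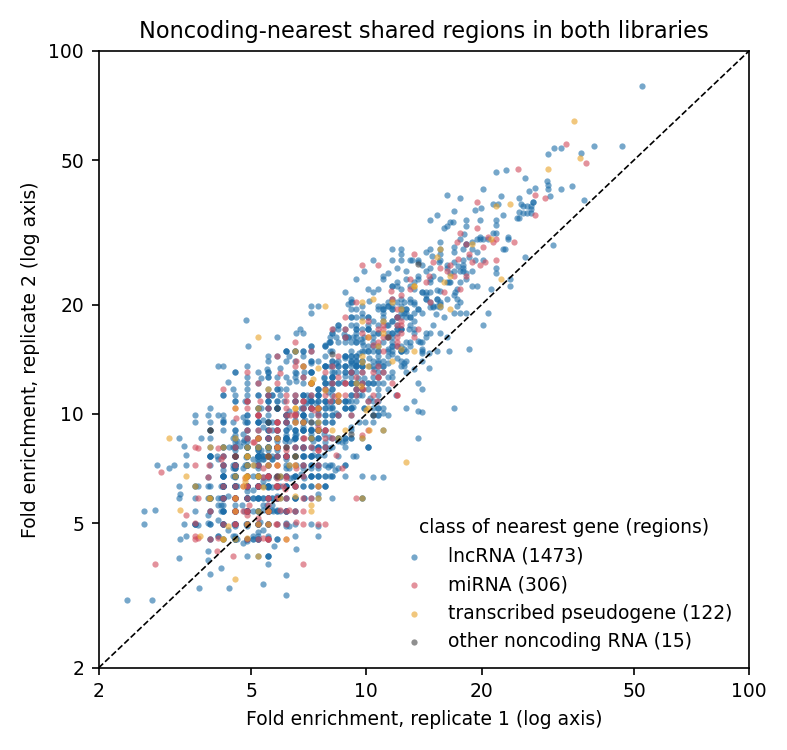
Fold enrichment of the 1916 noncoding-nearest regions in replicate 1 (horizontal, log axis) and replicate 2 (vertical, log axis), coloured by the class of the nearest gene. The dashed line marks equal folds; 86.6% of regions had the higher fold in replicate 2, and the strongest point is the 1700112H15Rik region at 52.3 and 79.9.

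Noncoding genes numbered 5166 in the annotation, and 962 of them (18.6%, 17.6 to 19.7) were nearest to at least 1 shared region. Among 20923 coding genes the background was 21.5%. Shares differed by class. Of 3312 lncRNA genes, 730 had a region (22.0%, 20.6 to 23.5), and of 1228 miRNA genes, 169 (13.8%, 11.9 to 15.8). Transcribed pseudogenes, copies of other genes that are still read into RNA, had 50 of 413 (12.1%, 9.12 to 15.6). The remaining classes, mostly snoRNAs and other small RNAs, had 13 of 213 (6.10%, 3.29 to 10.2). By region, lncRNA genes took 1473 (76.9%), miRNA genes 306 (16.0%), transcribed pseudogenes 122 (6.37%) and the remaining classes 15 (0.783%). Median folds were close between the classes, from 6.17 to 6.82 in replicate 1 and from 8.57 to 9.48 in replicate 2.

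In the remaining classes, Rnu1a1, a gene of the U1 RNA that recognises 5′ splice sites and belongs to a family of near-identical copies, had a region 332 bp downstream of its start, inside an intron of Tex14, with folds of 13.6 (41 fragments) and 25.95 (61 fragments). At the box H/ACA and C/D snoRNA genes, which guide base changes in other RNAs, the highest folds were 11.4 and 16.2, at Snord61 on the X chromosome. At 4930451G09Rik, of the class misc_RNA, a region lay 5378 bp downstream (8.12 and 14.7). Rny3, a Y RNA gene, had a region 2032 bp upstream (7.15 and 9.48). Dlx1as, the only gene of the class antisense_RNA with a region, had it 354 bp upstream (10.4 and 9.93).

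The fixed list of immune miRNA genes, which are known for setting the strength of macrophage and lymphocyte responses, had 51 annotated members. Of these, 9 were nearest to a shared region (17.6%), with 18 regions in all, beside 13.8% of all miRNA genes and 18.6% of all noncoding genes. They were Mir146, Mir21a, Mir21c, Mir511, Mir181a-1, Mir181b-2, Mir148a, Mir182 and Mir15a. Of 27 miRNA genes tied to TGFβ, 5 had a region (18.5%), namely Mir21a, Mir29b-1, Mir200c, Mir192 and Mir26a-1. The lists overlap in Mir21a.

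Mir21a encodes miR-21, a miRNA that is abundant in macrophages and whose maturation TGFβ and BMP SMADs are known to raise. It had 4 regions. The strongest lay 19897 bp upstream of the hairpin at chr11:86603630-86604481, in an intron of Vmp1, the coding gene that the Mir21a transcript overlaps. Its folds were 33.1 in replicate 1 (101 fragments) and 55.5 in replicate 2 (122 fragments), the tenth highest of all noncoding-nearest regions by the smaller fold. As printed above, its summit stretch held the C/EBP string at 2 places, 86603914 to 86603921 (TTGCCTAA) and 86603950 to 86603957 (TTGCACAA). A second region, 2859 bp upstream and also within Vmp1, had folds of 18.2 (55 fragments) and 29.3 (64 fragments). Downstream of the hairpin, at 3717 and 5070 bp, folds were lower, 5.52 and 8.12 in replicate 1 and 6.77 and 17.1 in replicate 2. The region at 5070 bp held both 6-letter SMAD strings, GTCTGG and CAGACA, and no C/EBP string. These SMAD strings can match the same letters on opposite strands, as in CCAGACA, so they need not be separate sites. Mir21c, whose miRNA has the same seed, had 2 regions at 54977 and 199282 bp downstream, with folds of 12.3 and 18.0 and of 7.15 and 12.2.

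Mir511 lies within Mrc1, the gene of the mannose receptor CD206, and is made together with it. It had 3 regions, all in introns of Mrc1. Their folds were 8.45 and 12.6 at 10768 bp upstream, 10.1 and 9.02 at 1229 bp downstream, and 6.26 and 5.44 at 11335 bp downstream, each pair given as replicate 1 and replicate 2. All 3 were above 5-fold in both libraries. Mir146, which encodes miR-146a, a brake on Toll-like receptor signalling, had 1 region 21283 bp downstream of the hairpin with folds of 10.1 (30 fragments) and 18.0 (39 fragments).

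The miR-181 genes encode miRNAs that share the seed ACAUUCA and are known for their part in lymphocyte signalling. Mir181a-1 had 4 regions from 92692 to 273511 bp upstream, and the strongest, at 214674 bp, had folds of 21.4 (65 fragments) and 29.8 (65 fragments). Its nearest coding gene was Ptprc, which encodes CD45, at 423345 bp. The weakest of the 4 had folds of 3.57 and 4.60 on 10 fragments in each library. Mir181b-2 had 1 region, in an intron of Nr6a1, with folds of 12.3 and 21.2.

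Among miRNA genes of the TGFβ list, Mir192 had the strongest region outside Mir21a, in an exon 4088 bp downstream of the hairpin, with folds of 20.8 (63 fragments) and 30.7 (67 fragments). Its nearest coding gene was Ehd1, whose TSS was 7964 bp away. Mir29b-1, of the miR-29 family that represses collagen genes, had 3 regions from 50634 to 53438 bp upstream with folds of 5.20 to 7.80 in replicate 1 and 4.96 to 9.93 in replicate 2. Mir26a-1 had 1 region in an intron of Ctdspl, its host gene, with folds of 8.77 and 17.1, and Mir200c had 1 in an intron of Ptpn6 with folds of 4.87 and 10.4.

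Of 37 annotated genes on the list of immune lncRNAs, 13 were nearest to a shared region (35.1%), with 30 regions, beside 22.0% of all lncRNA genes. The list of housekeeping noncoding RNAs had 3 of 30 genes with a region (10%), Rnu1a1, Oip5os1 and Airn, beside 18.6% of all noncoding genes. The lists were not tested against each other. A gene without a region may still have one closer to a neighbour.

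Morrbid is a lncRNA that represses the pro-apoptotic gene Bcl2l11 in myeloid cells and so prolongs their life. It had 4 regions, all upstream of its start. The strongest, 38352 bp upstream at chr2:128467235-128468172, had folds of 32.2 (98 fragments) and 54.1 (119 fragments) and is printed above with its C/EBP and AP-1 matches. The others, 7229, 16153 and 64804 bp upstream, had folds of 6.50, 7.15 and 9.10 in replicate 1 and 13.1, 14.0 and 14.0 in replicate 2. C/EBP strings were found in 3 of the 4 summit windows.

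Dleu2 is the host gene of the miR-15a and miR-16 hairpins, which repress Bcl2. It had 9 regions, from 288993 bp upstream to 16344 bp downstream of its start. The region at its promoter, 66 bp upstream, had folds of 5.52 (16 fragments) and 12.6 (27 fragments) and held a C/EBP and a PU.1 string. Stronger regions lay upstream, with folds of 18.5 and 27.1 at 14184 bp, of 15.6 and 29.8 at 179108 bp and of 21.4 and 37.9 at 286318 bp. A further region, in an intron, was nearest to Mir15a (6.50 and 6.32).

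Ptgs2os2, also known as lincRNA-Cox2, is an inflammatory lncRNA beside Ptgs2, the gene of cyclooxygenase-2. Its region lay 47 bp upstream of the start at chr1:150164531-150165460 and was among the strongest noncoding promoter regions, with folds of 17.5 (53 fragments) and 24.8 (54 fragments). The Ptgs2 TSS was 64964 bp away. Malat1, a lncRNA of nuclear speckles, had a promoter region (12.3 and 14.9) and a region 1015 bp upstream (9.42 and 23.5), so that their order differed between the libraries. Neat1, the scaffold of paraspeckles, had a promoter region with folds of 5.85 and 10.4 and another 1496 bp upstream with 6.82 and 9.21. Mirt1 had a weaker promoter region (4.55 and 7.67), and Mirt2 a region 4179 bp upstream in an intron of Spatc1 (15.6 and 27.5). The single region of Mir99ahg, a miRNA host gene, was the strongest of the list, with folds of 36.4 (111 fragments) and 52.3 (115 fragments) at 154223 bp upstream, in intergenic sequence.

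Most genes had a single region. Of the 962 genes, 556 had 1 region, 174 had 2, 117 had 3 and 115 had 4 or more. The last group held 661 regions, and the 10 genes with at least 10 regions held 122. Most of these genes are known by number only, and the coding neighbours are given for orientation. Gm19510 had the most, 17 regions within 71834 bp of its start, with Trib1 as the nearest coding gene of 12 of them. Trib1 encodes a pseudokinase that marks C/EBPα for degradation. Folds at Gm19510 ran from 4.22 to 23.7 in replicate 1 and from 7.67 to 35.2 in replicate 2. The strongest by the smaller fold, 36433 bp upstream, had 23.4 (71 fragments) and 30.2 (66 fragments), and 6 of the 17 summit windows at Gm19510 held a C/EBP string. 4930459C07Rik followed with 15 regions between Eea1 and Btg1, the strongest with 29.6 and 43.8.

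Myc, the growth regulator, was the most frequent coding neighbour, with 17 noncoding-nearest regions from 71219 to 886096 bp from its TSS and 2 shared regions of its own. Macroh2a3, annotated as a transcribed pseudogene, took 13 of them, with folds up to 21.1 and 30.2. Pvt1, a lncRNA next to Myc, took 3 in its introns, with folds of 16.9 and 28.9 at 17303 bp, 5.52 and 6.77 at 18463 bp and 4.55 and 7.95 at 24273 bp downstream of its start. Mir7661 lies in an intron of Itpr1, and 11 of its 12 regions were inside that gene. Its nearest coding TSS was that of Bhlhe40 for 11 regions, from 105784 to 215442 bp away, with folds at Mir7661 of up to 14.6 and 23.9.

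**Figure D4:**
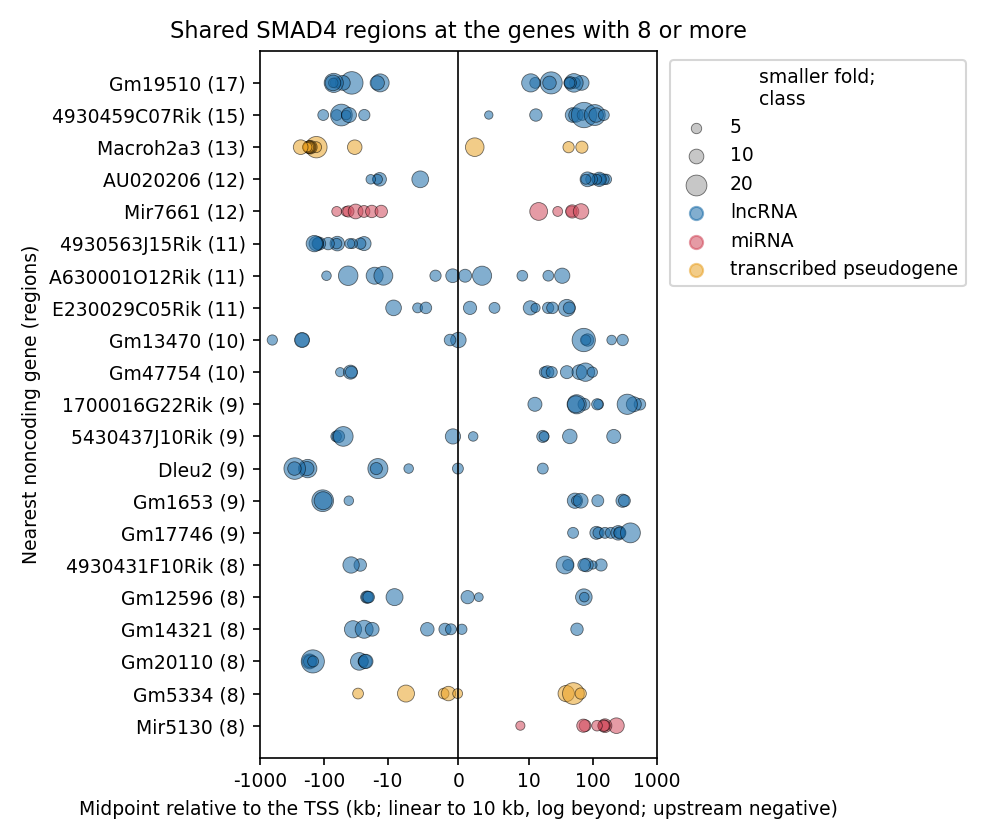
Position of each shared region relative to the nearest noncoding TSS (horizontal, kb, linear to 10 kb and log beyond, upstream negative) for the 21 genes with 8 or more regions. Circle area follows the smaller fold of both libraries and colour the gene class. Most circles lie more than 10 kb from the start, and few genes, such as Gm13470, have a region at it.

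Of 38 genes on the list of the AM program, 33 had a shared region by their own TSS (127 regions), and 8 were the nearest coding gene of 49 noncoding-nearest regions. The background was 4.51% of all coding genes that were the nearest coding gene of such a region (944 of 20923), beside the 21.5% with one by TSS. Like the other lists, this one was chosen with earlier results of these data known. It holds genes at which the paper shows SMAD4 peaks, among them Spi1, Cdh1 and Zeb2. A share above the background is therefore no independent evidence of enrichment. For Cebpb, Bhlhe40 and Zeb2, singled out after their values were seen, and for Mrc1, the noncoding-nearest regions were the more numerous. Cebpb, the gene of C/EBPβ, was nearest by TSS to 0 shared regions, yet it was the nearest coding gene of 13 noncoding-nearest ones, 1322 to 89069 bp away. A530013C23Rik, a lncRNA beside it, took 6 of these. They began with a region inside Cebpb itself, 1322 bp downstream of the Cebpb TSS and 522 bp upstream of the A530013C23Rik start (6.17 and 5.41). The highest folds at A530013C23Rik were 8.12 (24 fragments) and 14.9 (32 fragments). Gm14321 took the other 7, with folds of up to 14.9 (45 fragments) and 19.7 (46 fragments). At the lncRNA 2310001H17Rik were 5 regions whose nearest coding gene was Cd69, an activation marker of lymphocytes, which also had 0 of its own. The highest folds at 2310001H17Rik were 15.6 (47 fragments) and 26.6 (58 fragments).

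Bhlhe40, a transcription factor that AMs need for self-renewal, had 1 region by TSS and was the nearest coding gene of 13 noncoding-nearest ones. Zeb2, a factor of macrophage identity, had 6 by TSS and 11 noncoding-nearest ones. Of these, 9 were assigned to Gm13470 and lay 1032626 to 1545193 bp from the Zeb2 TSS, with a region 3 bp from the Gm13470 start (11.0 and 13.1) and the strongest 71816 bp downstream (25.02 and 34.7). The other 5 genes of the list were Abca1, Fabp5, Mrc1, Csf2rb and Tgm2. Abca1, which exports cholesterol, had 3 such regions with folds of up to 11.7 and 19.4, beside 8 by TSS. Fabp5, a fatty acid binding protein, had 3 such regions beside 3 by TSS. Csf2rb, of the GM-CSF receptor, had 2 beside 3. Mrc1 had 3, all at Mir511, beside 2 by TSS.

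In the TGFβ pathway list, 17 of 32 genes had a shared region by their own TSS (39 regions), and 7 were the nearest coding gene of 17 noncoding-nearest regions, beside the 21.5% and 4.51% of all coding genes. Id2, an inhibitor of helix-loop-helix factors and a BMP and TGFβ target, had 0 regions by TSS and 9 at Gm17746, from 81924 to 420966 bp upstream of Id2. Their folds ran from 5.20 to 18.2 in replicate 1 and from 6.31 to 29.3 in replicate 2. The farthest was the strongest, and 3 of the 9 regions at Gm17746 held a C/EBP string. Smad7, the inhibitor that TGFβ induces against its own receptor, had 2, both nearest to Gm20544, a lncRNA that starts head-to-head with it and is named here after its values were seen. The promoter region lay 67 bp downstream of the Gm20544 TSS and 344 bp upstream of that of Smad7, with folds of 7.47 (22 fragments) and 10.4 (22 fragments). Its summit window held the palindrome GTCTAGAC, a C/EBP string and an E-box. The second, at 3679 bp downstream of Gm20544, had folds of 9.10 and 14.4. Tgif1, a corepressor of SMADs, had 2, and Tgfb2, Acvr1b, Acvr2a and Id3 had 1 each.

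In the whole set, 944 coding genes were the nearest coding gene of a noncoding-nearest region. Of these, 513 had no shared region of their own by TSS, and 886 of the 1916 regions lay at them. Other neighbours with many regions were Lpp (15, 6 by TSS), Eea1 (12, 3 by TSS), Klf6 (9, 10 by TSS) and Ptger4 (9, 1 by TSS). Klf6, a zinc finger transcription factor, had its 9 at 1700016G22Rik, from 15706 to 549842 bp upstream of Klf6, with the highest folds at 1700016G22Rik of 18.8 and 22.6. Ptger4, a prostaglandin E2 receptor gene, had its 9 at 5430437J10Rik, the strongest with 17.9 and 28.4. Prdm1, the gene of the repressor Blimp-1, had 7, and 6 of them were at 4930431F10Rik with folds of up to 14.6 and 34.3.

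By the smaller fold of both libraries, the strongest region was the one at 1700112H15Rik, in its intron at chr1:184535817-184537063, with 52.3 (160 fragments) and 79.9 (176 fragments). It ranked 2 among all shared regions. 1700112H15Rik, a lncRNA whose nearest coding gene was the homeobox gene Hlx at 196053 bp, had 5 further regions. Of these, 2 were above 20-fold in both libraries, 60443 bp upstream (29.9 and 41.5) and 76848 bp downstream (25.02 and 39.3). At 2810029C07Rik (46.4 and 54.7) the summit stretch consists of near-repeats of 1 short unit, as its printed sequence shows, and none of the searched strings was found. This region lay 13320 bp from the 2810029C07Rik start and 13428 bp from the TSS of Mark3, which starts head-to-head with it. Next came 4930430J02Rik (39.3 and 54.6) and Mir6397 in an intron of Scp2 (37.4 and 49.2).

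Gm51814 had a region 9062 bp upstream with folds of 37.0 (113 fragments) and 38.8 (85 fragments) and another at its promoter, 370 bp upstream, with 11.0 and 13.5. Its nearest coding gene was Tnfaip3, which encodes the NF-κB inhibitor A20, at 38307 bp from the stronger region. Of the 20 strongest regions, 3 were at transcribed pseudogenes, Gm11346 in an intron of Ripor2 (36.1 and 50.5), Hmga2-ps1 in an intron of Sdccag8 (34.8 and 64.1) and Morf4l1-ps1 in an intron of Lpp (29.9 and 47.4). Hmga2-ps1 had the second highest fold in replicate 2. Others lay at AU019990 (30.9 and 54.1), in an intron 1166 bp downstream of its start, and at Apol7d (29.9 and 51.9). The Apol7d region was 77852 bp from the Apol7d start and 77953 bp from the TSS of Fn1, the fibronectin gene. Apol7d and Fn1 start head-to-head, so its assignment rested on a small margin.

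Noncoding-nearest regions lay farther from starts than coding-nearest ones. Their median distance to the noncoding TSS was 25479.5 bp, compared with 16721 bp from a coding-nearest region to its coding TSS, and 28.1% lay within 10 kb (26.1 to 30.2), compared with 37.2%. The nearest coding TSS was a median of 75886.5 bp away. Distance to a TSS was what the rule used, and no genome distances were set beside these values. The noncoding-nearest share of genome bases was itself 17.0% under 1 kb and 32.1% beyond 100 kb. The difference in distance thus cannot be told apart from the spacing of annotated starts. Promoters, 1 kb upstream to 100 bp downstream of the nearest curated TSS, held 70 regions (3.65%, 2.86 to 4.59), beside a background of 6.23% and 6.77% in coding-nearest regions. A region in the promoter of a farther TSS alone was not counted. The strongest promoter regions, given as replicate 1 and replicate 2 and named after their values were seen, were at Gm15133 (19.2 and 36.5), head-to-head with Trim12a, at Gm16548 (18.2 and 24.4), head-to-head with the coagulation gene F5, and at Gm19705 (17.9 and 25.3). F630028O10Rik, on the X chromosome near the complement receptor gene Vsig4, had a promoter region with 12.3 and 19.4.

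Many of these regions lay within coding genes. Of the 1916, 562 were inside a curated coding gene (29.3%, 27.3 to 31.4). The background over all shared regions was 50.7%, coding-nearest regions reached 55.2%, and of the genome's noncoding-nearest bases 20.7% were inside one. Intergenic were 53.7% (51.4 to 56.0), intronic 39.2% and exonic 3.39%. Inside the nearest noncoding gene itself were 287 (14.98%), and in no curated gene 1066 (55.6%). At miRNA genes, which often sit in introns, 59.8% of regions were inside a coding gene, compared with 22.7% at lncRNA genes. The nearest noncoding gene overlapped no coding gene for 1169 regions (61.0%), overlapped one on the opposite strand for 286 (14.9%), overlapped one on the same strand for 222 (11.6%) and started within 1 kb of an opposite coding TSS, or head-to-head, for 239 (12.5%). Median folds of these groups ran from 6.50 to 6.85 in replicate 1 and from 9.48 to 9.93 in replicate 2.

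Assignment depended on small margins for some regions. For 263 (13.7%) the nearest coding TSS was at most 1000 bp farther than the noncoding one, and for 61 at most 100 bp. Conversely, 334 coding-nearest regions (3.69%) were that close to a noncoding TSS. For 1050 regions (54.8%) the coding TSS was over 2 times as far. With GENCODE M21 basic transcripts, which annotate more noncoding genes, 5090 shared regions were noncoding-nearest (46.4%), among them 1747 of the 1916 (91.2%), which made up 34.3% of that larger set. The share of genome bases was not computed with GENCODE M21, so the deficit against the genome was not checked there.

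Sequence was not used to choose the regions, and 13 consensus strings were counted in windows of 100 bp to each side of the summits and, for comparison, in 2 flank windows of the same size centred 1 kb away. A match describes letters and not a bound site. The string of C/EBP, the factors that guide myeloid differentiation, was in 784 windows (40.9%, 38.7 to 43.2) and in 9.06% of flanks, a ratio of 4.52. The background over all shared regions was 40.8%. With the regions ranked by the smaller fold and cut into 4 groups of 479, it was in 34.2%, 35.9%, 39.2% and 54.3% of windows, from the weakest group to the strongest. PU.1 (GAGGAAGT), the master factor of macrophages, was in 150 (7.83%, 6.67 to 9.12), beside a background of 8.01% and a flank share of 1.72%. CAGGAAGT, the string of ELF5-type ETS factors, was in 6.05% and 1.57%. AP-1 (TGANTCA) was in 13.3% (11.8 to 14.9) and 7.10%, and RUNX (TGTGGTT) in 10.8% and 4.75%. PU.1 and ETS strings differ in their first letter, so that 1 site cannot count as both.

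The SMAD strings searched stood out little or were rare. Other forms of SMAD site were not searched. The paper, by a motif search and not by fixed strings, reports that SMAD4 peaks were enriched for the factor's own motif. GTCTGG was in 222 windows (11.6%, 10.2 to 13.1), beside a background of 11.2% and 10.4% of flanks, and CAGACA was in 19.2% of both windows and flanks. The palindrome GTCTAGAC was in 16 windows (0.835%, 0.478 to 1.35), beside a background of 0.465% and a flank share of 0.157%. In coding-nearest regions it was in 35 windows (0.387%, 0.270 to 0.538). The intervals overlap and rest on few regions. The 3 regions printed above had folds of 17.5 and 20.3 at Gm33370, 15.6 and 23.5 at LOC105245613 and 14.6 and 20.3 at E130008D07Rik, and each also held a C/EBP string in its window. Shares of the STAT string TTCNNNGAA (8.77% and 6.81% of flanks), of AGGTCA for nuclear receptors (16.9% and 11.9%) and of the E-box CACGTG (3.71% and 2.77%) were modestly above the flanks. RBPJ (GTGGGAA) was at 4.02% and 4.07%, and CTCF at 0.522% and 1.23%. No C/EBP, PU.1, ETS, AP-1 or RUNX string was found in 39.1% of windows, and 88 regions (4.59%) had C/EBP together with PU.1 or ETS.

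**Figure D5:**
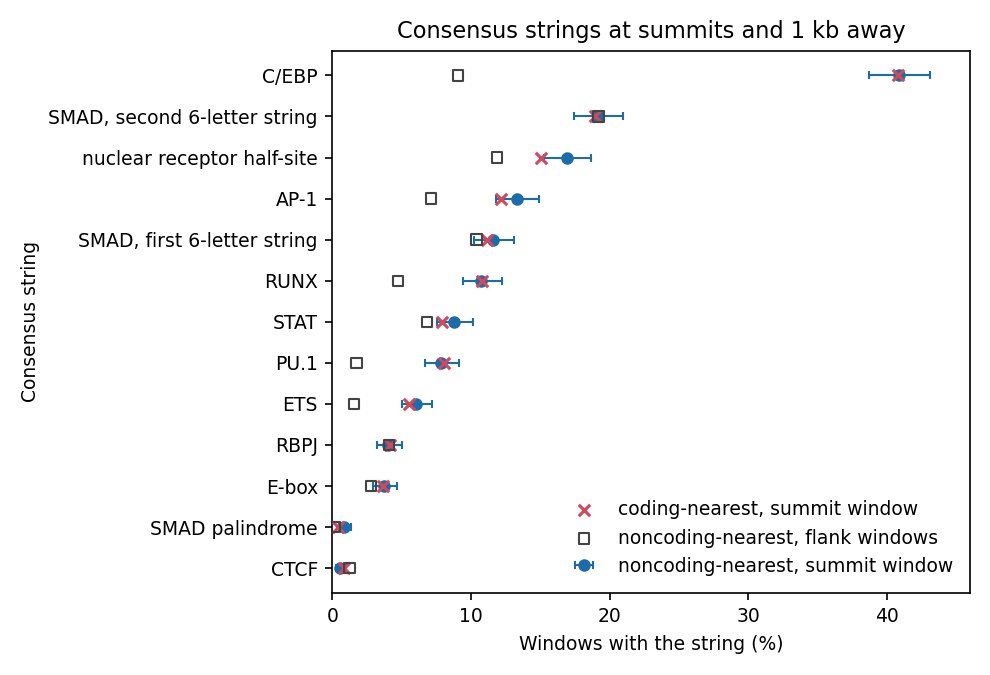
Percent of windows with each consensus string: summit windows of noncoding-nearest regions (circles with exact 95% binomial intervals, n = 1916), summit windows of coding-nearest regions (crosses, n = 9048) and flank windows 1 kb away (open squares). The first and second 6-letter SMAD strings are GTCTGG and CAGACA. C/EBP stands out, at 40.9% against 9.06% of flanks.

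The C/EBP share varied little with the kind of gene. It was 41.3% at lncRNA genes, 41.2% at miRNA genes and 36.9% at transcribed pseudogenes, and 40.3% to 42.3% across the 4 arrangements of the noncoding gene and its coding neighbour. Base composition was alike too, with a median GC content of 43.8% in windows of noncoding-nearest and of coding-nearest regions and a median of 9.95% repeat-masked bases in both.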

How the data were processed

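HT-ChIPmentation of SMAD4 in AMs was analysed from the peak lists of 2 libraries. The authors used Cutadapt for trimming and Bowtie2 for alignment to mm10, removed duplicates and low-quality pairs, and called peaks with MACS3 in each sample separately, with input as control and a q limit of 0.05. Each deposited peak has a fold ratio at the summit over the control level, −log10 p and −log10 q values, and a score, which the authors' caller derived from q and which was not used. Library totals were not used here. Summit fragments were solved from the deposited fold and −log10 p values, and all peaks gave a whole number within 0.02.

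Peaks overlapping by at least 1 bp were merged, and each midpoint was assigned to the nearest of 45657 curated RefSeq transcripts of GRCm38.p6 with Python 3.11.15, numpy 2.4.6, pandas 2.3.3, scipy 1.17.1, pysam 0.24.0 and samtools 1.23.1. Ties between coding and noncoding starts, of which there were 0, would have counted as coding. Groups came from the labels, and replicate numbers follow accession order. With 2 libraries of 1 group no test between samples was made. Binomial intervals at 95% are exact (Clopper-Pearson) and cover counting error alone. Merging and the solving of summit fragments were tested on simulated data, and assignment was tested at random positions against a full scan. Named were the 20 noncoding genes with the strongest regions by the smaller fold, genes nearest to at least 4 regions, genes of the fixed lists, the strongest region of each gene class, and the nearest coding genes of these. Other names are stated as chosen after their values were seen. The regions, lists and strings were chosen with earlier results of these data known. Alternatives were another position, overlap, threshold, gene set, window or annotation, and each library alone.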

Additional observations from a re-analysis of the deposited data

How the results depend on the processing

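Of 45 alternative values of 6 results, 30 stayed within a set limit of the reported one and 15 did not. The 6 results are counts, shares and a median without a direction. The comparison with the genome is not among them and was not repeated under the alternatives. The limit was 1.5 times for the number of regions, the SD between libraries for the share of peaks and the median fold, and the binomial interval for the other shares. The number of noncoding-nearest regions (1916) was 1365 by distance to the gene body, 1439 at a fold of at least 5, 1563 with lncRNA genes alone, and 5090 with GENCODE M21, an annotation chosen after seeing the data. GENCODE M21 also gave 49.4% noncoding-nearest peaks per library in place of 18.9%, and 40.4% of regions inside a coding gene in place of 29.3%. With lncRNA genes alone these were 15.5% and 23.5%. The share of union regions found in both libraries (41.4%) was 31.0% with 50% reciprocal overlap, 43.9% at a q of at most 0.001 and 50.5% at a fold of at least 5. Windows of 200 bp raised the C/EBP share from 40.9% to 49.1%, being wider. Using the peaks of 1 library alone, without the requirement of a partner, gave 3241 to 3435 regions, a median fold of 5.20 to 6.70 in place of 8.15, 24.8% to 28.03% inside a coding gene and 28.1% to 32.9% with the C/EBP string. In each pair the first value is that of replicate 1 alone. Apart from the wider window, the larger annotation, the smaller gene set and single libraries, which differ by construction, the cause was not tested. No paired analysis was possible because replicate numbers were given in accession order, pair no sample with another, and both SMAD4 libraries belong to 1 group. The low fragment counts, down to 9 and 7 at a summit, limit how well weak regions can be placed.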
